A study of Homo sapiens with 12 samples.

Results

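Described here are 9 transcripts of a human cell line that lay higher with both hairpins against p53 than with either control. They are DGCR8, MIR22HG, CSF2RB, TRPV1, FAM198B, MMD, VAMP2, PASK and SS18L1, and they are 9 of the 25435 gene symbols in the count table. All 9 were among the 13365 symbols with enough reads to be tested. They were chosen by name from earlier results on these same libraries, because their counts lay higher with shRNA 1 and with shRNA 2 than with scramble and with vector. Those 4 comparisons therefore chose the genes and are given below as values, with no test.

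RNA was sequenced from LMSU, a gastric cancer cell line labelled as carrying p53 R175H, grown in F-10 Ham medium, in 6 groups of 2 libraries. In the knockout arm, which the labels mark as without doxycycline, the p53 knockout (construct sg-1, marked GFP, labelled as having lost R175H) was set against the knockout control (construct V2, marked GFP, R175H present). In the knockdown arm, where every group is labelled as given doxycycline, p53 shRNA 1 and p53 shRNA 2 (both labelled as having lost R175H) were set against scramble and vector (R175H present in both). The labels do not say whether the cells were clones or pools, or whether replicate libraries are from different cultures, and p-values therefore measure only the spread between these libraries, which may be technical.

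The tumour suppressor p53 is a transcription factor that binds DNA through a central domain, and R175H is a common tumour mutation that unfolds this domain. Mutant p53 of this kind loses most of its binding to normal target genes and often accumulates in tumour cells. Among the 9 transcripts, DGCR8 is the RNA-binding partner of Drosha in the Microprocessor, which cuts primary microRNA transcripts, and MIR22HG is the host transcript of miR-22. The other 7 encode a cytokine receptor subunit, an ion channel, 2 further membrane proteins, a vesicle fusion protein, a nutrient-sensing kinase and a chromatin remodeller subunit.

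Library depth ran from 9738094 to 16823246 counts. The biological coefficient of variation, the spread between libraries of a group beyond counting noise, was 9.55% over the 12 libraries together, 15.6% for the knockout arm and 3.08% for the knockdown arm. Every replicate pair differed by more than sampling noise, with a chi-square per gene between 1.56 and 34.4, the highest in the knockout control. Markers of the labelled stomach lineage were absent or near 0: none of the 11 gastric lineage markers in the table reached a median of 10 counts. Of 12 epithelial markers 5 reached a median of 10 counts, among them the keratins KRT8 (751 to 2767 counts) and KRT18 (2170 to 4236 counts). EPCAM and CDH1, also on that list, had 0 to 2 counts in every library. All 12 fibroblast and mesenchymal markers searched reached a median of 10 counts. Their summed level was 12400 to 14000 CPM (counts scaled to library size) in the knockout arm and 31500 to 38400 in the knockdown arm. The sum leans on its most abundant genes, since VIM had 86982 to 264993 counts and POSTN 9 to 166. Of 12 blood and immune markers 2 reached a median of 10 counts, and of 12 neuronal markers 3 did. Among these, CD68 had 2524 to 6648 counts and TUBB3 1089 to 5640 counts. The leukocyte gene PTPRC had 0 to 3 counts and the neuronal gene SNAP25 0 to 1 count. In bulk RNA, fewer cells of a type and less RNA per cell cannot be told apart.

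Sequences are shown for the miR-22 products, because MIR22HG is their host transcript. Promoters are shown because the 9 lay high together with the hairpins. DGCR8 also overlaps microRNA genes on its own strand, MIR3618 and MIR1306, which had 0 counts in every library and are not shown. The mature miR-22 strands below are from RefSeq (GRCh38.p14, minus strand of chromosome 17), with bases 2 to 8, the seed that pairs with targets, in capitals. The 3p strand lies at chr17:1713914-1713935 and the 5p strand at chr17:1713952-1713973, both inside MIR22HG.
hsa-miR-22-3p: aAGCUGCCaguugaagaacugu
hsa-miR-22-5p: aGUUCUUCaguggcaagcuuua
The seeds differ, so each strand would pair with its own targets. The table lists MIR22 itself at 0 in all 12 libraries, and mature microRNAs are too short for these mRNA libraries, so only the host transcript was measured.

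RefSeq gave a promoter for 8 of the 9 members, at 12 starts. The entry for CSF2RB is named only. The 250 bases before each start were searched on both strands for 6 motifs, a set chosen after the counts were seen. CCAAT, the box bound by NF-Y, was present at 6 of 12 member starts and in 32.0% of the 35116 RefSeq promoters of the same length. GGGCGG, the GC box bound by SP1, was present at 7 of 12 starts and in 42.6% of promoters. Neither CACGTG (6.34% of promoters), TGACGTCA (1.65%), TATAAA (10.7%) nor the p53 response element decamer (5.57%) was found at any member start, which says only that these letters are not in these windows. CACGTG and TGACGTCA share the letters ACGT, and the windows of the VAMP2 starts overlap, so their matches are shared.

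The 3 members below were picked after the match counts were known, from those that hold 2 or more CCAAT matches. They include DGCR8 and MIR22HG, the members tied to microRNAs. CCAAT, or ATTGG where the match is on the other strand, is in capitals. The windows are chr22:20079991-20080240 (plus strand) for DGCR8, chr17:1716211-1716460 (minus strand) for MIR22HG and chr2:241150223-241150472 (minus strand) for PASK, in GRCh38.p14, each printed in the direction of the gene and ending at the base before the start.
DGCR8: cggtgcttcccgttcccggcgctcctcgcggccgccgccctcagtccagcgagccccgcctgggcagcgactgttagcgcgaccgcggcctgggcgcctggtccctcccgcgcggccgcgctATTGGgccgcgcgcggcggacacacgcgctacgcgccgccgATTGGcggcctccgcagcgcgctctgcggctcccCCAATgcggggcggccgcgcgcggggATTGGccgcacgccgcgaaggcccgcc
MIR22HG: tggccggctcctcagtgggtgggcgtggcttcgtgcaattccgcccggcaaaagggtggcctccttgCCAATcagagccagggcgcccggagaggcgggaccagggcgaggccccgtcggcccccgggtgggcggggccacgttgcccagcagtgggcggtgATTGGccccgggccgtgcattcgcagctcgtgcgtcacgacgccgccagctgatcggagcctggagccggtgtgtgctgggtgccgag
PASK: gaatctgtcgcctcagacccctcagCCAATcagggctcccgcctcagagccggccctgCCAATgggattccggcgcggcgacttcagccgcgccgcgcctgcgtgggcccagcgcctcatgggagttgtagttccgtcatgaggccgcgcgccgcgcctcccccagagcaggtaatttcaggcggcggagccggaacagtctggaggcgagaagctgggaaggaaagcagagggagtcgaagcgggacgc
The DGCR8 window holds 4 CCAAT matches and those of MIR22HG and PASK 2 each. FAM198B has 2 at its first start and MMD 1, whereas TRPV1, SS18L1 and VAMP2 have 0. A match is a description of the letters and was not tested against the expression values.

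In the 4 comparisons that chose them, the 9 transcripts lay higher with the hairpins by 0.53 to 1.21 on the log2 scale. All 4 hairpin libraries stood above all 4 scramble and vector libraries for each, a pattern shown by 745 genes, or 5.57% of those tested. The lowest hairpin library was 1.27 times the highest control library for MMD and for DGCR8, the narrowest gaps, and 1.49 times for CSF2RB, the widest. The median log2 difference of the members was 0.65 and 0.66 over scramble with shRNA 1 and shRNA 2, and 0.68 and 0.69 over vector, beside a median of 0 over all genes in each. Called in either direction at an adjusted p of 0.05 were 9.41% and 7.74% of all genes over scramble and 13.0% and 21.0% over vector. Of all genes, 4.40%, 3.58%, 5.78% and 9.21% of all genes were called higher in these comparisons, and 31 genes, 0.232%, were higher in all 4. The 9 members are among those 31 because they were chosen so. Comparisons with the same control share its libraries.

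**Figure D1:**
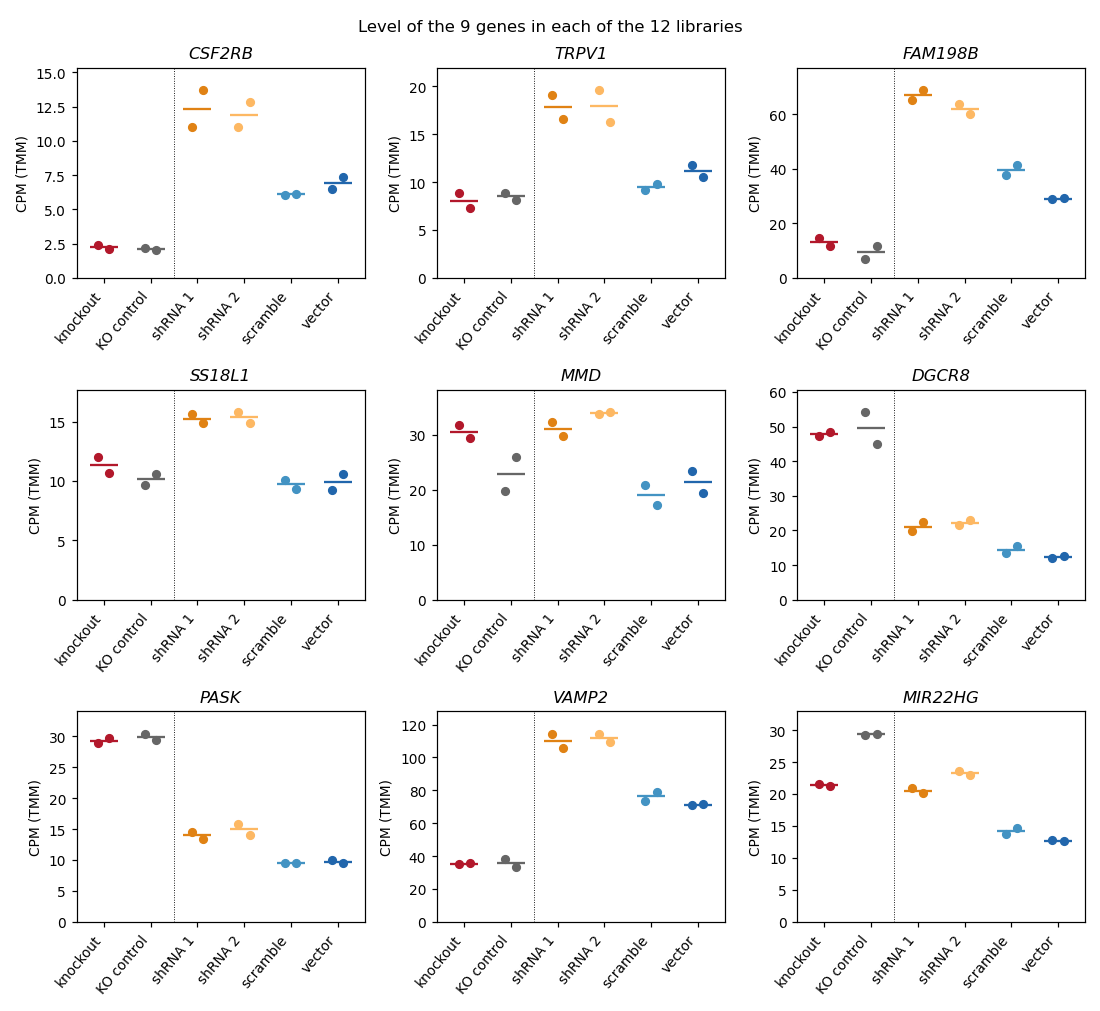
Level of each of the 9 transcripts in the 12 libraries, in CPM scaled by TMM, with a panel per gene and its own axis from 0; each point is a library, each horizontal line the mean of a group of 2, and the dotted line parts the knockout arm from the knockdown arm. In every panel the 4 hairpin libraries lie above the scramble and vector libraries, while the knockout libraries lie above both controls only for FAM198B, SS18L1 and MMD and below both only for MIR22HG.

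DGCR8 stood at 19.9 and 22.4 CPM (here scaled by TMM, which balances the libraries' composition) with shRNA 1 and at 21.6 and 22.9 CPM with shRNA 2, against 13.4 and 15.6 CPM with scramble and 12.2 and 12.5 CPM with vector. The log2 differences were 0.53 and 0.61 over scramble and 0.77 and 0.85 over vector, each with an SE of 0.13. In the knockout arm DGCR8 stood at 47.2 and 48.5 CPM in the p53 knockout, against 54.2 and 44.9 CPM in the knockout control. The knockout libraries fell between the control libraries, and the log2 difference of -0.05 (SE 0.11, adjusted p = 0.90) did not pass the test.

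MIR22HG had 20.9 and 20.1 CPM with shRNA 1 and 23.6 and 22.9 CPM with shRNA 2, against 13.7 and 14.7 CPM with scramble and 12.8 and 12.6 CPM with vector. Its log2 differences were 0.53 and 0.71 over scramble and 0.70 and 0.88 over vector (SE 0.10). In the p53 knockout it had 21.6 and 21.2 CPM, against 29.3 and 29.4 CPM in the knockout control. Both knockout libraries lay below both controls, the opposite side from the hairpins, and 11.2% of all genes showed such a separation downwards. The knockout difference was -0.46 (SE 0.095, 95% interval -0.69 to -0.22), with an unadjusted p of 5e-04 and an adjusted p of 0.24, so it was not called.

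CSF2RB, the beta subunit shared by the receptors for GM-CSF, interleukin 3 and interleukin 5, had 11.0 and 13.7 CPM with shRNA 1 and 11.0 and 12.8 CPM with shRNA 2. Scramble libraries had 6.06 and 6.14 CPM and vector libraries 6.49 and 7.36 CPM. The log2 differences were 1.01 and 0.96 over scramble and 0.82 and 0.77 over vector (SE 0.15 to 0.16). In the knockout arm the transcript was near the floor of the table, at 2.37 and 2.10 CPM (32 and 31 counts) in the p53 knockout and 2.16 and 2.04 CPM (31 and 24 counts) in the knockout control. The groups overlapped there and the difference of 0.08 (SE 0.24) carried a 95% interval from -0.49 to 0.66 (adjusted p = 0.93).

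TRPV1, the capsaicin- and heat-gated cation channel best known from sensory neurons, had 19.1 and 16.6 CPM with shRNA 1 and 19.6 and 16.3 CPM with shRNA 2. The controls had 9.14 and 9.81 CPM with scramble and 11.8 and 10.5 CPM with vector. Log2 differences were 0.91 and 0.92 over scramble and 0.68 and 0.69 over vector (SE 0.15). The p53 knockout, at 8.90 and 7.24 CPM, overlapped the knockout control, at 8.90 and 8.09 CPM, with a difference of -0.08 (SE 0.16, adjusted p = 0.89). TRPV1 overlaps SHPK in the RefSeq annotation, on the same strand by GENCODE, so reads in the shared stretch may be split between them.

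FAM198B, now named GASK1B, encodes a Golgi membrane protein. It had 65.2 and 68.8 CPM with shRNA 1 and 63.7 and 60.1 CPM with shRNA 2, against 37.8 and 41.2 CPM with scramble and 28.8 and 29.2 CPM with vector. The log2 differences were 0.76 and 0.65 over scramble and 1.21 and 1.09 over vector (SE 0.16), the widest spread between the controls among the 9 transcripts. In the p53 knockout it had 14.5 and 11.8 CPM, against 7.03 and 11.6 CPM in the knockout control. Both knockout libraries were above both controls, by a narrow margin in 1 pair, and the difference of 0.52 (SE 0.19, unadjusted p = 0.020, adjusted p = 0.72) was not called.

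MMD, a membrane protein of the progestin and adipoQ receptor (PAQR) family first found in maturing macrophages, had 32.3 and 29.8 CPM with shRNA 1 and 33.8 and 34.1 CPM with shRNA 2. Scramble libraries had 20.9 and 17.2 CPM and vector libraries 23.4 and 19.4 CPM. The log2 differences were 0.71 and 0.84 over scramble and 0.54 and 0.67 over vector (SE 0.15). The p53 knockout stood at 31.7 and 29.4 CPM, above the knockout control at 19.7 and 26.0 CPM. That difference was 0.43 (SE 0.15, unadjusted p = 0.014) and missed the threshold over all genes (adjusted p = 0.68).

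VAMP2, a vesicle membrane SNARE that drives fusion with the plasma membrane, had 114.3 and 105.6 CPM with shRNA 1 and 114.0 and 109.7 CPM with shRNA 2. It had 73.4 and 79.2 CPM with scramble and 70.9 and 71.5 CPM with vector. Log2 differences of 0.53 and 0.55 over scramble and 0.63 and 0.65 over vector had the smallest SE of the 9 transcripts (0.093 to 0.094). Knockout libraries, at 35.1 and 35.7 CPM, fell inside the knockout control libraries at 38.2 and 33.1 CPM. The difference of -0.01 had a 95% interval from -0.25 to 0.23 (adjusted p = 0.97).

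PASK, a kinase with a PAS domain that takes part in nutrient sensing and glycogen control, had 14.6 and 13.4 CPM with shRNA 1 and 15.9 and 14.0 CPM with shRNA 2. It had 9.54 and 9.51 CPM with scramble and 9.96 and 9.46 CPM with vector. The log2 differences were 0.56 and 0.65 over scramble and 0.53 and 0.62 over vector (SE 0.12). The p53 knockout had 28.9 and 29.7 CPM and the knockout control 30.4 and 29.5 CPM, overlapping, with a difference of -0.03 (SE 0.10, 95% interval -0.28 to 0.22, adjusted p = 0.93). PASK overlaps PPP1R7 on the opposite strand, and how the counting treated strand is not given in the sources used here.

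SS18L1, also called CREST, is a subunit of neuronal BAF chromatin remodelling complexes and a calcium-responsive coactivator. It had 15.6 and 14.9 CPM with shRNA 1 and 15.8 and 14.9 CPM with shRNA 2, against 10.1 and 9.36 CPM with scramble and 9.28 and 10.6 CPM with vector. Its log2 differences were nearly equal, at 0.65 and 0.65 over scramble and 0.61 and 0.62 over vector (SE 0.13). The p53 knockout had 12 and 10.7 CPM, just above the knockout control at 9.67 and 10.6 CPM, and the difference of 0.17 (SE 0.13, adjusted p = 0.79) was not called.

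The knockout-arm libraries were not used to choose the genes. The fit takes its spread from all 12 libraries, however, including the 8 that chose the genes. The SEs and p-values are therefore not independent of that choice. In a fit of the 4 compared libraries alone, the SE was 0.16 for MIR22HG, 0.29 for FAM198B and 0.21 for MMD, and 0 members were called. In the fit of all 12 it was 0.095, 0.19 and 0.15. None of the 9 was called by edgeR's quasi-likelihood test, beside 2 of 13365 genes in all, or 0.0150% (0.00748% in each direction). Unadjusted p-values below 0.05 were found for 3 of 9 members (FAM198B and MMD higher, MIR22HG lower) and for 859 genes in all. DESeq2 and limma-voom also called none of the 9. By position alone, FAM198B, SS18L1 and MMD had both knockout libraries above both control libraries, as did 12% of all genes. MIR22HG had both below, as did 11.2% of all genes. The members' median log2 difference was -0.01, the same as over all genes. Leaving out the second knockout control library changed the calls: FAM198B (0.90, adjusted p = 0.0015), MMD (0.63, adjusted p = 0.0036) and MIR22HG (-0.46, adjusted p = 0.0064) were then called, together with 4135 genes in all. The difference between the knockout effect and the hairpin effects was not tested.

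**Figure D2:**
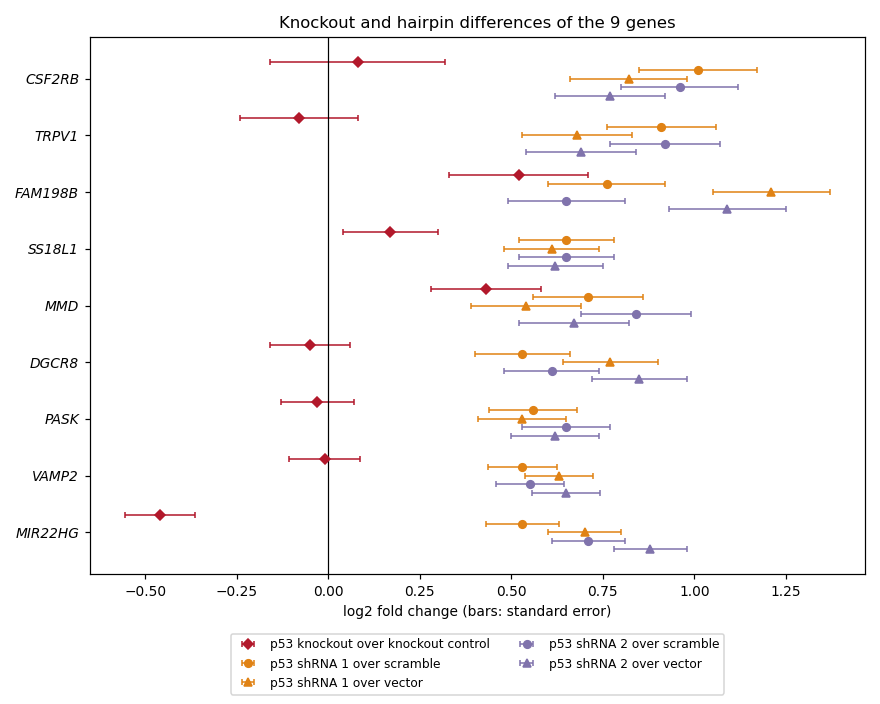
Log2 fold change of each of the 9 transcripts (x axis) for the p53 knockout over its control and for each hairpin over scramble and over vector; points are estimates and bars are standard errors, from the fit of all 12 libraries. The hairpin estimates lie between 0.53 and 1.21 by the choice of genes, and the knockout estimates between -0.46 for MIR22HG and 0.52 for FAM198B.

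The hairpins were also compared with each other, on the libraries that chose the genes. Choosing genes high with both hairpins favours genes on which the hairpins stand close, so the counts and values here are a description and nothing is read from them against the background. None of the 9 differed between shRNA 1 and shRNA 2 at an adjusted p of 0.05, and none had an unadjusted p below 0.05 in edgeR. Of all genes, 14.3% were called (7.07% higher and 7.21% lower with shRNA 1) and 3809 had an unadjusted p below 0.05. Estimates ran from -0.18 for MIR22HG (95% interval -0.42 to 0.06, adjusted p = 0.27) to 0.11 for FAM198B (-0.27 to 0.49, adjusted p = 0.69). The intervals of all 9 lay between -0.49 and 0.49, so differences of that size are not shown to be absent. DESeq2 and limma-voom also called none.

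Scramble over vector also uses libraries that chose the genes, and choosing genes low with both controls favours close controls, so it too is a description. It was called for none of the 9 and for 15.3% of all genes (7.10% higher and 8.16% lower with scramble), while 3878 genes had an unadjusted p below 0.05. FAM198B had the largest difference, at 39.5 ± 2.41 CPM with scramble and 29.0 ± 0.268 CPM with vector (SD, n = 2 each), or 0.45 on the log2 scale (SE 0.16, unadjusted p = 0.017, adjusted p = 0.086). It was called without a filter on low counts, in a fit of the 4 compared libraries and in a fit of the 8 knockdown-arm libraries. The other 8 members lay between -0.23 (TRPV1) and 0.24 (DGCR8).

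Levels in the arms stood apart for 6 of the 9 transcripts. CSF2RB, TRPV1, FAM198B and VAMP2 were lower in all 4 knockout-arm libraries than in any of the 8 knockdown-arm libraries, as were 25.5% of all genes, and DGCR8 and PASK were higher in all 4, as were 27.2%. Among controls alone, DGCR8 averaged 49.5 CPM in the knockout control and 13.4 CPM over scramble and vector, a ratio of 3.68, and PASK 30.0 and 9.62 CPM, a ratio of 3.12. MIR22HG averaged 29.4 CPM in the knockout control and 13.5 CPM over scramble and vector, a ratio of 2.18. FAM198B averaged 9.30 CPM in the knockout control and 34.3 CPM over scramble and vector, and CSF2RB 2.10 and 6.51 CPM. For DGCR8 and PASK, every hairpin library was therefore below every knockout-arm library, including the controls in which R175H is labelled as present. The arms differ in construct and in doxycycline, and these cannot be told apart. The summed fibroblast markers given above also differ between the arms, and their part in these levels was not tested. This comparison was chosen after the levels were seen and has no test.

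**Figure D3:**
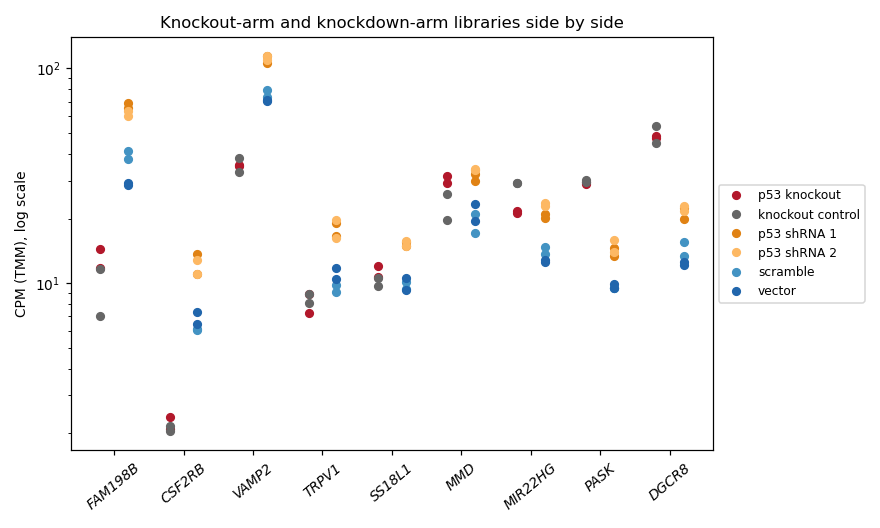
Level of each transcript in CPM (TMM) on a log axis, with the 4 knockout-arm libraries on the left of each pair of columns and the 8 knockdown-arm libraries on the right; each point is a library. FAM198B, CSF2RB, VAMP2 and TRPV1 lie lower in the knockout arm, PASK and DGCR8 lie higher, and the other 3 overlap.

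Partner genes of each member were counted from 9 lists, to set the members beside their pathways. In the knockout, edgeR called 0 of 141 tested list genes, and 8 had an unadjusted p below 0.05. In the hairpin comparisons the background of calls was 4.40% up and 5.01% down for shRNA 1 over scramble, 3.58% and 4.15% for shRNA 2 over scramble, 5.78% and 7.26% for shRNA 1 over vector, and 9.21% and 11.7% for shRNA 2 over vector. Of 17 tested genes of microRNA processing, 0 rose and 0 fell with shRNA 1 over scramble, 1 rose and 1 fell with shRNA 2 over scramble, and 2 rose and 1 fell with each hairpin over vector, with list medians from -0.06 to 0.10 beside 0 over all genes. The helicase DDX5, a Microprocessor cofactor, rose over vector by 0.50 with shRNA 1 and 0.43 with shRNA 2 (adjusted p = 0.00092 and 0.0011), where scramble also rose over vector by 0.46 (adjusted p = 0.00095). RAN, which with exportin 5 carries precursors out of the nucleus, fell by 0.48 with shRNA 1 over vector (adjusted p = 0.024), with -0.22 over scramble (adjusted p = 0.32). DROSHA, the nuclease partner of DGCR8, averaged 41.5 and 36.6 CPM with shRNA 1 and shRNA 2, against 38.8 CPM with scramble and 43.4 CPM with vector.

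Among 7 tested microRNA host transcripts, 1 rose with each hairpin over scramble, and the list medians were 0.12 and 0.35. This was MIR210HG, the host of the hypoxia-linked miR-210, which rose by 1.78 and 1.67 (adjusted p = 0.00058 and 0.00089). It moved the other way over vector, at -0.60 and -0.72 (adjusted p = 0.042 and 0.012), and its scramble over vector difference was -2.38 (adjusted p = 2e-05). For MIR22HG that difference was 0.17 (adjusted p = 0.32). Over vector, 0 host transcripts rose and 1 fell with shRNA 1, and 1 rose and 1 fell with shRNA 2. MIR100HG rose with shRNA 2 over vector by 0.57 (adjusted p = 0.0023), as did scramble by 0.47 (adjusted p = 0.011), with 0.11 for shRNA 2 over scramble (adjusted p = 0.62).

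Of 15 tested genes around the common beta receptor, 0 rose and 3 fell with shRNA 1 over scramble, 1 rose and 0 fell with shRNA 2, and over vector 0 rose and 2 fell with shRNA 1 and 5 rose and 1 fell with shRNA 2. STAT3, a transcription factor downstream of cytokine receptors, rose with shRNA 2 by 0.44 over scramble and 0.47 over vector (adjusted p = 0.0044 and 0.00097). With shRNA 1 STAT3 was at 0.05 and 0.08 (adjusted p = 0.75 and 0.54). The kinase gene PIM1, a STAT target, fell with shRNA 1 by 0.60 over scramble and 0.90 over vector (adjusted p = 0.002 and 0.00011). With shRNA 2 it fell by 0.43 over vector (adjusted p = 0.0046), with -0.13 over scramble (adjusted p = 0.45), and scramble fell over vector by 0.30 (adjusted p = 0.037). SHC1, an adaptor, rose by 0.33 with shRNA 2 over vector (adjusted p = 0.0083), as did scramble by 0.24 (adjusted p = 0.046), with 0.08 for shRNA 2 over scramble (adjusted p = 0.57). The alpha subunit CSF2RA was listed at 0 in all 12 libraries, and it lies in the region shared by the X and Y chromosomes, where reads can map to more than 1 locus. Counts of CSF2, the GM-CSF ligand, were 198 and 234 in the p53 knockout and 404 and 220 in the knockout control, and 0 to 7 in the 8 knockdown-arm libraries. The receptor subunit thus stood lower, and its ligand higher, in the knockout arm.

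Of 13 tested TRP channels, edgeR called none over scramble, where 4 had an unadjusted p below 0.05 with shRNA 1 and 1 with shRNA 2. Among all 13365 genes tested, 3123 and 2890 had such a p in these comparisons. Over vector, 1 rose with shRNA 1 and 2 rose and 1 fell with shRNA 2. TRPV3, a warmth-gated channel and the neighbour of TRPV1, rose by 2.58 with shRNA 2 over vector (adjusted p = 0.00091), as did scramble by 2.20 (adjusted p = 0.0048). TRPM6, a magnesium channel with a kinase domain, fell by 2.21 with shRNA 2 over vector (adjusted p = 0.0085), and TRPA1, an irritant-gated channel, rose by 0.76 with shRNA 1 over vector (adjusted p = 0.0086). Scramble over vector was -1.33 for TRPM6 (adjusted p = 0.060) and 0.65 for TRPA1 (adjusted p = 0.015), and TRPA1 with shRNA 1 over scramble was 0.11 (adjusted p = 0.74). TRPV3 and TRPM6 were near the floor, with 3 to 46 and 2 to 75 counts over the 12 libraries. With shRNA 2 and with vector, TRPV3 averaged 1.46 and 0.237 CPM, and TRPM6 0.404 and 1.89 CPM.

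Among 27 tested SNARE and fusion genes, 2 rose and 1 fell with shRNA 1 over scramble and 1 rose and 1 fell with shRNA 2. Over vector 4 rose and 2 fell with shRNA 1, and 8 rose and 1 fell with shRNA 2, with medians of -0.05 and 0.16. STX1A, the plasma membrane partner of VAMP2, rose by 1.09 with shRNA 2 over vector (adjusted p = 0.00053), as did scramble by 0.65 (adjusted p = 0.019), with 0.45 for shRNA 2 over scramble (adjusted p = 0.11). SYT1, a calcium sensor of fusion, fell with shRNA 2 by 0.68 over scramble and 1.05 over vector (adjusted p = 0.026 and 0.0006). With shRNA 1 SYT1 was at 0.06 and -0.31 (adjusted p = 0.88 and 0.20). STX12, an endosomal syntaxin, rose over vector by 0.51 and 0.65 (adjusted p = 0.0063 and 0.00061), beside 0.72 for scramble (adjusted p = 0.00043). SNAP25, the neuronal partner of VAMP2, had at most 1 count.

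The PAQR family, to which MMD belongs, had 8 tested genes: 1 rose and 1 fell with shRNA 1 over scramble, and 2 rose with shRNA 1 over vector. With shRNA 2 edgeR called none (1 with an unadjusted p below 0.05 over scramble and 0 over vector). Among all 13365 genes tested, 2890 had such a p with shRNA 2 over scramble and 4464 with shRNA 2 over vector. PAQR6, a membrane progestin receptor, rose with shRNA 1 by 0.85 over each control (adjusted p = 0.027 over scramble and 0.019 over vector), ADIPOR2, an adiponectin receptor, fell by 0.49 over scramble (adjusted p = 0.0082), and PAQR3, a Golgi protein, rose by 0.63 over vector (adjusted p = 0.035). ADIPOR2 over vector was -0.26 (adjusted p = 0.098), and PAQR3 over scramble was 0.27 (adjusted p = 0.39). Of 24 tested BAF subunits beside SS18L1, 4 rose and 1 fell with shRNA 1 over scramble, 1 rose and 0 fell with shRNA 2, and 1 rose and 2 fell with each hairpin over vector. The core subunit SMARCC1 fell with shRNA 1 by 0.60 over scramble and 0.50 over vector (adjusted p = 0.0056 and 0.012). With shRNA 2 SMARCC1 was at 0.01 and 0.11 (adjusted p = 0.98 and 0.53). SMARCC2 rose with shRNA 1 over scramble by 0.34 (adjusted p = 0.026) and fell with shRNA 2 over vector by 0.36 (adjusted p = 0.0092). SMARCC2 also fell with scramble over vector, by 0.48 (adjusted p = 0.0021), and shRNA 2 over scramble was 0.13 (adjusted p = 0.43). BCL7A, an accessory subunit, rose by 0.38 with shRNA 2 over vector (adjusted p = 0.015), as did scramble by 0.37 (adjusted p = 0.022), with 0.01 for shRNA 2 over scramble (adjusted p = 0.97).

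Of 7 tested secretory pathway kinases and relatives of FAM198B, only FJX1 was called in a comparison of a hairpin with a control, rising by 0.51 with shRNA 1 over scramble (adjusted p = 0.0086) and falling by 0.64 with shRNA 2 over vector (adjusted p = 0.00081). FJX1 also fell with scramble over vector, by 0.58 (adjusted p = 0.0022), and shRNA 2 over scramble was -0.07 (adjusted p = 0.77). Among 23 tested energy-sensing and glycogen genes beside PASK, 2 rose and 4 fell with shRNA 1 over scramble, 2 rose with shRNA 2, 2 fell with shRNA 1 over vector, and 3 rose and 3 fell with shRNA 2. SIK1, a salt-inducible kinase, rose with shRNA 2 by 0.77 over scramble and 0.55 over vector (adjusted p = 0.0009 and 0.0018). With shRNA 1 it rose by 0.39 over scramble (adjusted p = 0.032), with 0.17 over vector (adjusted p = 0.28). PRKAG2, a regulatory subunit of AMPK, rose over scramble by 1.36 and 0.87 (adjusted p = 0.00059 and 0.0087), beside a scramble over vector difference of -1.44 (adjusted p = 0.00012). Over vector it was -0.08 with shRNA 1 (adjusted p = 0.76) and fell by 0.57 with shRNA 2 (adjusted p = 0.019). GYS1, the glycogen synthase of muscle and most tissues, fell over vector by 0.42 and 0.75 (adjusted p = 0.023 and 0.00048), as did scramble by 0.69 (adjusted p = 0.0012), and its estimates over scramble were 0.26 and -0.06 (adjusted p = 0.16 and 0.81).

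By chromosome, TRPV1, MMD, VAMP2 and MIR22HG lie on 17, CSF2RB and DGCR8 on 22, FAM198B on 4, SS18L1 on 20 and PASK on 2, from RefSeq names alone since the counts were made on another build. Of their 18 nearest tested neighbours, 1 rose and 1 fell with shRNA 1 over scramble, 2 rose with shRNA 2, and over vector 1 rose and 1 fell with shRNA 1 and 3 rose and 1 fell with shRNA 2. Of all genes, 4.40%, 3.58%, 5.78% and 9.21% rose in these comparisons, in the same order, and 5.01%, 4.15%, 7.26% and 11.7% fell. TLCD2, beside MIR22HG, rose by 1.35 and 0.83 over scramble (adjusted p = 5.4e-05 and 0.0014) and by 0.49 with shRNA 1 over vector (adjusted p = 0.014), with -0.04 for shRNA 2 (adjusted p = 0.86). Scramble over vector was -0.87 for TLCD2 (adjusted p = 0.00037). The neighbour on the other side of MIR22HG rose with shRNA 2 by 0.45 over scramble and 0.71 over vector (adjusted p = 0.035 and 0.0011). With shRNA 1 that gene was at 0.08 and 0.34 (adjusted p = 0.74 and 0.077), and scramble over vector was 0.26 (adjusted p = 0.16).

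The genes whose levels over the 12 libraries were most like the mean profile of the 9 were TMEM68 (Pearson r = 0.907), ZNF783 (0.906), KIF3B (0.901), PTPN21 (0.899) and FMR1 (0.893). For single members the closest were FOXL1 for CSF2RB and for VAMP2 (0.988 and 0.989), MCL1 for TRPV1 (0.969), RAI14 for FAM198B (0.989), TMEM68 for SS18L1 (0.936), PTPN1 for MMD (0.869), L3MBTL2 for DGCR8 (0.982), CPSF6 for PASK (0.989) and TNFRSF10D for MIR22HG (0.934). The 12 libraries share groups and arms, so these values describe likeness and carry no p. Between members, r ran from -0.74 to 0.99, since some stand high and some low in the knockout arm.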

How the data were processed

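The authors deposited a table of raw gene counts, 1 column per library. Per the submitters' processing notes, reads were demultiplexed with bcl2fastq and aligned with STAR 2.5 to hg19; the sources used here do not give the annotation or the treatment of strand. Per the labels' protocols, libraries were made with a Roche Kapa mRNA kit. From the deposited counts, edgeR 4.0.16 (R 4.3.3; quasi-likelihood F test, TMM, filterByExpr with a minimum count of 10) was fitted to the 6 groups together (6 residual degrees of freedom), with Benjamini-Hochberg adjustment over 13365 genes and calls at an adjusted p of 0.05. Levels are TMM-scaled CPM computed from those counts.

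The members and the partner lists were chosen with earlier results of these data known. Partner genes named are up to 3 called genes per list with the smallest adjusted p against scramble or vector or in the knockout. CSF2RA, CSF2, DROSHA, SNAP25 and TLCD2, the motifs and the comparison of arms were chosen after values were seen. The 5 genes most like the mean profile, and the gene most like each member, were taken by Pearson r of log2 CPM. Some genes that these rules pick are not reported here, and 1 gene was kept out of the likeness and neighbour searches. Sequences, chromosomes and neighbours are from RefSeq, GRCh38.p14, and strands of overlapping genes from GENCODE release 29. Of 235 list and marker entries, 232 were in the table.

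The fit was tested on simulated data with 13365 genes. In the p53 knockout over knockout control it recovered 52.2% of genes changed 1.5-fold and 92.5% of those changed 2-fold, with 9 unchanged genes called. In shRNA 1 over scramble it recovered 43.3% and 82.1%, with 12 unchanged genes called. Every simulated library had the spread estimated over all 12 libraries together. The wider spread of the knockout arm (15.6% against 9.55%) was not simulated, so these figures do not give the power there. Alternatives were DESeq2 1.42.0, limma-voom (limma 3.58.1), RLE scaling, no filter and a minimum count of 50, only the compared libraries, the replicate number as a block, and each library left out. Intervals are at the 95% level and cover the spread between libraries as the fit estimates it. They use a t distribution on the 6 residual degrees of freedom. The p-values use the test's own degrees of freedom, which borrow from all genes, so the intervals are wider than the p-values alone would give.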

Additional observations from a re-analysis of the deposited data

Results flagged for a closer look

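MIR22HG was flagged because it lay on opposite sides of its controls in the arms. Of all genes, 11.2% had both knockout libraries below both controls, so that separation does not by itself set MIR22HG apart. Both p53 knockout libraries (21.6 and 21.2 CPM) were below both knockout control libraries (29.3 and 29.4 CPM), a log2 difference of -0.46, while all 4 hairpin libraries (20.1 to 23.6 CPM) were above all 4 scramble and vector libraries (12.6 to 14.7 CPM). The difference between these effects was not tested, the knockout difference was not called over all genes (adjusted p = 0.24), and the hairpin side was fixed by the choice of the gene.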

How the results depend on the processing

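In the p53 knockout over its control, genes called numbered 2, beside 20 with DESeq2, 1 with limma-voom, 64 without a filter on low counts, 0 in the fit of the 4 compared libraries and 1 with the replicate block. Leaving out single libraries gave 1 to 4135, with 4135 without knockout control replicate 2, 17 without knockout control replicate 1 and 1 without p53 knockout replicate 1. Members called there were 0 in the planned fits that keep all libraries of the comparison, and 0 to 3 with a library left out. A crossed replicate block in the knockout arm, chosen after the data were seen because the replicate deviations of knockout and control correlated at -0.65, called 624 genes and 3 members.

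In the fit of the compared libraries only, genes called numbered 5032 for shRNA 1 over shRNA 2, 5645 for scramble over vector, 3920 and 4106 for shRNA 1 and shRNA 2 over scramble, and 5299 and 6313 over vector. In the fit of the 8 knockdown-arm libraries, also chosen after the data were seen, they numbered 5038, 5462, 4304, 4091, 5283 and 6066 in the same order. With a library left out they ranged over 682 to 799, 879 to 921, 340 to 397, 235 to 275, 496 to 641 and 1399 to 1447. Members called for scramble over vector became 1 (FAM198B) with no filter, with the compared libraries and with the 8 libraries. The cause was not tested.

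Replicate deviations of different groups correlated between -0.65 and 0.25, so same-numbered libraries were not shown to be pairs, and the -0.65 of the knockout arm leaves its numbering in doubt. Under the replicate block, 8 of 9 members were called higher in all 4 hairpin comparisons, with MMD missing over vector with shRNA 1, and no member changed its call in the other 3 comparisons.

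The members' hairpin differences kept their sign in every alternative run, but some missed the threshold when a library was left out, with adjusted p up to 0.21 for FAM198B with shRNA 2 over scramble and 0.27 for MMD with shRNA 1 over vector. Of member differences, only uncalled ones near 0 changed sign. In the knockout these were VAMP2 with the compared libraries (0.0042). Between hairpins they were TRPV1 (0.0014 with limma-voom, 0.0053 with no filter, 0.0054 with the stricter filter) and SS18L1 (0.0057 with no filter, 0.0058 with the stricter filter). The rest came from leaving out single libraries. In the knockout, CSF2RB then ranged from -0.0025 to 0.17, TRPV1 from -0.23 to 0.06, DGCR8 from -0.18 to 0.10 and VAMP2 from -0.11 to 0.10. Between hairpins, CSF2RB ranged from -0.11 to 0.21, TRPV1 from -0.13 to 0.14, SS18L1 from -0.04 to 0.05, DGCR8 from -0.16 to 0.01, PASK from -0.17 to 0.0086 and VAMP2 from -0.08 to 0.04. For scramble over vector, SS18L1 ranged from -0.13 to 0.07 and PASK from -0.07 to 0.0068.

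CSF2RB, at 24 to 32 counts in the knockout arm, is the member whose knockout interval is widest. With 2 libraries a group, precision rests on the spread shared over all 12 libraries, and the knockout arm varied more than the knockdown arm.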
